A study of Homo sapiens with 16 samples.

Results

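The genes described here write, copy, remove or read methylation of cytosine in DNA. They were the 10 rows of the deposited gene table whose symbol was DNMT1, DNMT3A, DNMT3B, UHRF1, UHRF2, HELLS, TET1, TET2, TET3 or MBD2. All 10 were found among the 12676 genes of the table. The rule takes them by symbol and not by a measured value, but the list was drawn up with earlier results of these data known. The cells were H1299, an established human non-small cell lung cancer line. Both groups were infected with lentivirus (48 h, with 8 µg/ml of polybrene), and by the labels 2 µg/ml of puromycin was then applied for 4 to 7 days. The control group (shNT, titled shCtrl in the labels) carried a control shRNA, and the knockdown group (shYEATS2) carried an shRNA against YEATS2, a histone acetylation reader and subunit of the ATAC acetyltransferase complex. Each group had 2 RNA-seq libraries that the study calls biological replicates. The labels do not name the shRNA, but the paper describes the same YEATS2 hairpin for its duplicate RNA-seq. In these libraries an effect of that hairpin other than on YEATS2 therefore cannot be told apart from the knockdown. The paper also reports RNA-seq with another, partly effective YEATS2 hairpin, and rescue experiments with shRNA-resistant YEATS2. Neither is among the libraries used here. The 12 ChIP-seq samples of the series were not analysed here. DNA methylation itself was not measured in the data used here, which give RNA abundance only.

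DNA methyltransferases add a methyl group to cytosine, mostly where a guanine follows. DNMT3A and DNMT3B place new methylation, whereas DNMT1 copies the pattern onto the new strand after replication, guided by UHRF1, which binds sites methylated on the old strand alone, and helped by the chromatin remodeller HELLS. TET enzymes oxidise the methyl group, and the oxidised base is either lost when DNA is copied or cut out by TDG and replaced through base excision repair, while MBD2 binds methylated sites and brings the NuRD deacetylase complex.

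The listed genes received 34718921 to 39417787 reads a library. Scaled counts are reads brought to the mean effective library size, with TMM factors (a correction for composition) of 0.952 to 1.05, and genes were called by edgeR (quasi-likelihood test) at an FDR under 0.01 after Benjamini-Hochberg adjustment over all 12676 genes. This gave 1581 genes lower and 1630 higher, 50.8% of the calls being higher. Scaling by total counts instead gave 1166 and 2363 (67% higher) and moved the middle gene of the table from -0.0019 to 0.118 on the log2 scale. The YEATS2 gene itself had scaled counts of 4482 and 4104 in shNT and 665 and 673 in shYEATS2, a log2 fold change of -2.68 (SE 0.10, edgeR FDR 0.000583), lower in both libraries labelled as knockdown. An antisense lncRNA, YEATS2-AS1, overlaps 1164 of its exon bases, and reads were not separated by strand. The epithelial keratins KRT8 and KRT18 and the mesenchymal gene VIM were in the table, whereas 0 of 7 markers of blood, endothelium, liver, muscle and alveolus were listed.

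Of the 10 genes, 3 fell (HELLS, UHRF1 and DNMT1) and 1 rose (TET3). Over the whole table, 12.5% of genes were called lower and 12.9% higher. Among the 10 genes the shares were 30% and 10%, the latter below that of all genes. The fallen genes act in copying methylation onto new DNA. The gene that rose is an eraser, but the erasers TET2 and TET1 were not called, and TET1 had a negative log2 fold change (-0.32). The scaled counts of the groups did not overlap for 9 of the 10 genes, the exception being DNMT3B, but this was so for 79.6% of all genes, and the 10 genes had a median of -0.10 on the log2 scale against -0.0019 over all genes. At the looser FDR of 0.05, UHRF2 was also lower and TET2 higher, when 23.8% and 24.4% of all genes were called lower and higher. In bulk RNA, fewer cells in the phase that uses a gene and less RNA per cell cannot be told apart.

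The promoters of the genes that fell are shown because each holds at least 1 of 4 short words, though no single word is in all of them. RefSeq promoter windows (GRCh38.p14, 250 bases before to 50 after each start) were searched on both strands for 4 words of the E2F binding consensus, TTTCCCGC, TTTCGCGC, TTTGCCGC and TTTGGCGC. All 10 genes had at least 1 window, and no matches overlapped. E2F factors are known to drive genes of DNA synthesis, and the words were chosen with the fold changes known, so no test was made. Each window is given on its gene's strand with the word in capitals, in either orientation. They lie at chr10:94545538-94545837 (HELLS, plus strand), chr19:4909251-4909550 (UHRF1, plus strand) and chr19:10194904-10195203 (DNMT1, minus strand).
HELLS: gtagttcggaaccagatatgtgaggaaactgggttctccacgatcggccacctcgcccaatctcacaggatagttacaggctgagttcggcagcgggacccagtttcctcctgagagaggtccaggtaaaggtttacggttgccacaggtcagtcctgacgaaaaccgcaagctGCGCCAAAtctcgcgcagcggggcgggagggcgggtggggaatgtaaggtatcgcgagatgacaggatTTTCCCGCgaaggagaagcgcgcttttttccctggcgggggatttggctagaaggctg
UHRF1: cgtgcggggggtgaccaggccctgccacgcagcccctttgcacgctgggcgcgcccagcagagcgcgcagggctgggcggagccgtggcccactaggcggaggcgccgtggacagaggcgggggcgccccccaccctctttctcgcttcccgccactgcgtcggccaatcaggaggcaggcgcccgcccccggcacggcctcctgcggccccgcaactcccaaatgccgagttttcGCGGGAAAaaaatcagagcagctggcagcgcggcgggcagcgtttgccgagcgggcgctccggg
DNMT1: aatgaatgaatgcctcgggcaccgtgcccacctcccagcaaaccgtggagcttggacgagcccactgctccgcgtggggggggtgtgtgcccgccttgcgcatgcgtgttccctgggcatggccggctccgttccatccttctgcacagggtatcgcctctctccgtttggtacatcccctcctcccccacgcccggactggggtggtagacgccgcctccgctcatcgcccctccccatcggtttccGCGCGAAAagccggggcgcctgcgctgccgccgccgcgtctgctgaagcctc
The first letter of the words lay at -76 and -8 from the start in HELLS, at -14 in UHRF1 and at -2 in DNMT1. A further UHRF1 window at chr19:4909894-4910193 held a word at -160. The windows of the other 7 genes, TET3 included, held none, which says only that these letters are not in those windows. A word was found in 1164 of 35116 promoter windows (3.31%), and in 622 of the 9085 tested genes with a window (6.85%). The first windows held 22 CpG sites in HELLS, 36 in UHRF1 and 30 in DNMT1, near the median of 27 over tested genes, whereas the DNMT3B window had 3. Whether the windows cover the main start of each gene was not checked, so the value for DNMT3B may not describe its main promoter.

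HELLS, a helicase that opens nucleosomal DNA to methylation, lies at chr10:96305086-96373662 (GRCh37, plus strand, ENSG00000119969). Its scaled counts were 2439 and 2117 in shNT and 1006 and 544 in shYEATS2. Both knockdown libraries were below both controls, and the mean went from 2278 ± 228 to 775 ± 327 (SD, n = 2 each), 2.94-fold lower. The log2 fold change was -1.56 (SE 0.26, 95% interval -2.18 to -0.93, edgeR FDR 0.00437), lower than that of all but 0.907% of genes.

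UHRF1, the reader of hemimethylated sites that recruits DNMT1, lies at chr19:4903092-4962165 (GRCh37, plus strand) and is listed as ENSG00000034063, an identifier since replaced, so its position was matched by symbol. The shNT libraries had 8328 and 6791 scaled counts and the shYEATS2 libraries 3782 and 1994, again without overlap. Mean scaled counts were 7559.5 ± 1087 in shNT and 2888 ± 1264 in shYEATS2 (SD, n = 2 each), 2.62-fold lower. The log2 fold change was -1.39 (SE 0.28, 95% interval -2.05 to -0.73, edgeR FDR 0.00780). Without shNT replicate 1 it was -1.24 with an edgeR FDR of 0.0103, so that call rests on this library.

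DNMT1, the maintenance methyltransferase, lies at chr19:10244018-10341962 (GRCh37, minus strand, ENSG00000130816). It was counted most of the 10 genes in every library, with scaled counts of 18430 and 16741 in shNT and 10093 and 7113 in shYEATS2. The groups did not overlap, and the mean went from 17586 ± 1194 to 8603 ± 2107 (SD, n = 2 each), 2.04-fold lower. The log2 fold change was -1.03 (SE 0.17, 95% interval -1.43 to -0.63, edgeR FDR 0.00399).

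The fallen genes also shared an uneven knockdown arm. The higher shYEATS2 library exceeded the lower by 1.85-fold in HELLS, 1.90-fold in UHRF1 and 1.42-fold in DNMT1. Replicate 2 was the lower in each, although YEATS2 itself was 665 and 673 in the same libraries. In shNT, replicate 2 was also the lower library for each of these genes, by a smaller ratio. Summed scaled counts of the S phase markers described below were 228813 and 214616 in shNT and 121498 and 83643 in shYEATS2. The direction was thus not confined to the knockdown arm or to these genes, and its cause was not tested. When 1 library at a time was left out, the log2 fold change ran from -2.07 to -1.18 in HELLS, from -1.92 to -0.999 in UHRF1 and from -1.31 to -0.80 in DNMT1, and it was the farthest from 0 without shYEATS2 replicate 1. Exons of other genes on the same strand overlap 438 exon bases of HELLS (3.08%, a lncRNA) and 83 of DNMT1 (0.54%, S1PR2).

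UHRF2, the paralog of UHRF1 (chr9:6413151-6507054, GRCh37, plus strand, ENSG00000147854), is not known to replace it in maintenance. It was counted at 3283 and 3683 in shNT and 2760 and 2536 in shYEATS2. The groups did not overlap, but the log2 fold change of -0.40 (SE 0.11, 95% interval -0.65 to -0.14, edgeR FDR 0.0215) did not pass the threshold.

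**Figure D1:**
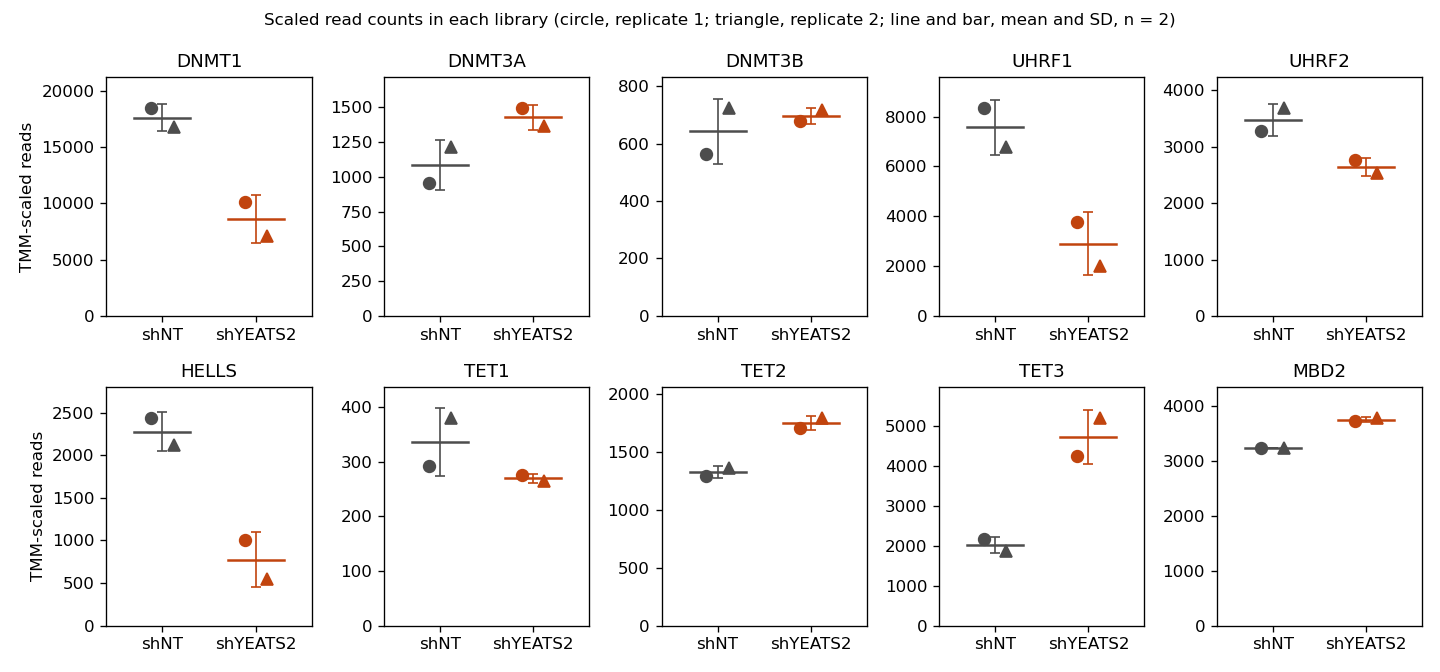
Scaled read counts (reads brought to the mean effective library size) of the 10 genes in the 2 shNT and 2 shYEATS2 libraries, with 1 panel a gene, the y axis from 0, circles for replicate 1, triangles for replicate 2, and the line and bar for mean and SD. HELLS, UHRF1 and DNMT1 are lower in both knockdown libraries, lowest in replicate 2, TET3 is higher in both, and the groups overlap only in DNMT3B.

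The de novo methyltransferases were counted in few reads compared with DNMT1 and were not called. DNMT3A (chr2:25450724-25565459, GRCh37, minus strand, ENSG00000119772) had scaled counts of 958 and 1214 in shNT and 1494 and 1364 in shYEATS2. The groups did not overlap, but the log2 fold change was 0.40 (SE 0.14, 95% interval 0.07 to 0.72, edgeR FDR 0.0506), and it was 0.23 (edgeR FDR 0.323) without shNT replicate 1. DNMT3B (chr20:31350191-31397165, GRCh37, plus strand, ENSG00000088305) had 563 and 722 in shNT and 677 and 715 in shYEATS2, with both knockdown values between the controls. Its log2 fold change was 0.12 (SE 0.15, 95% interval -0.23 to 0.46, edgeR FDR 0.537) and turned to -0.06 without shNT replicate 1, so no direction can be given.

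TET3, the one eraser that rose, oxidises methylated cytosine and lies at chr2:74212037-74335303 (GRCh37, plus strand, ENSG00000187605). In shNT it had 2168 and 1869 scaled counts and in shYEATS2 4238 and 5200.4. Its mean went from 2019 ± 211 to 4719 ± 681 (SD, n = 2 each), 2.34-fold higher, with no overlap. The log2 fold change was 1.23 (SE 0.14, 95% interval 0.90 to 1.55, edgeR FDR 0.00136), and 3.78% of genes had a higher one. It stayed between 1.07 and 1.37 with each library left out. A lncRNA on the same strand, AC073046.25, shares 390 exon bases with TET3 (3.01% of its exon bases), and its own log2 fold change was 0.77 (edgeR FDR 0.0449), so reads of the shared stretch cannot be assigned to either gene.

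TET2 (chr4:106067032-106200973, GRCh37, plus strand, ENSG00000168769) oxidises the same base but lacks the CXXC domain of its relatives. Its scaled counts were 1288 and 1360.4 in shNT and 1704 and 1791 in shYEATS2, with no overlap. The log2 fold change was 0.40 (SE 0.10, 95% interval 0.17 to 0.63, edgeR FDR 0.0146), outside the threshold. TET1 (chr10:70320094-70454244, GRCh37, plus strand, ENSG00000138336), the eraser best known from embryonic stem cells, was counted least of the 10, with 293 and 381 in shNT and 276 and 264 in shYEATS2. Its log2 fold change of -0.32 had an interval that included 0 (SE 0.17, -0.73 to 0.09, edgeR FDR 0.165), and it was -0.11 without shNT replicate 2 and -0.50 without shNT replicate 1.

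MBD2 (chr18:51677976-51751039, GRCh37, minus strand, ENSG00000134046), the reader that binds methylated promoters, was nearly constant within groups. Its scaled counts were 3232 and 3234 in shNT and 3724 and 3788 in shYEATS2. The groups did not overlap, yet the log2 fold change of 0.22 was small (SE 0.09, 95% interval 0.0036 to 0.43, edgeR FDR 0.0845) and was not called.

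**Figure D2:**
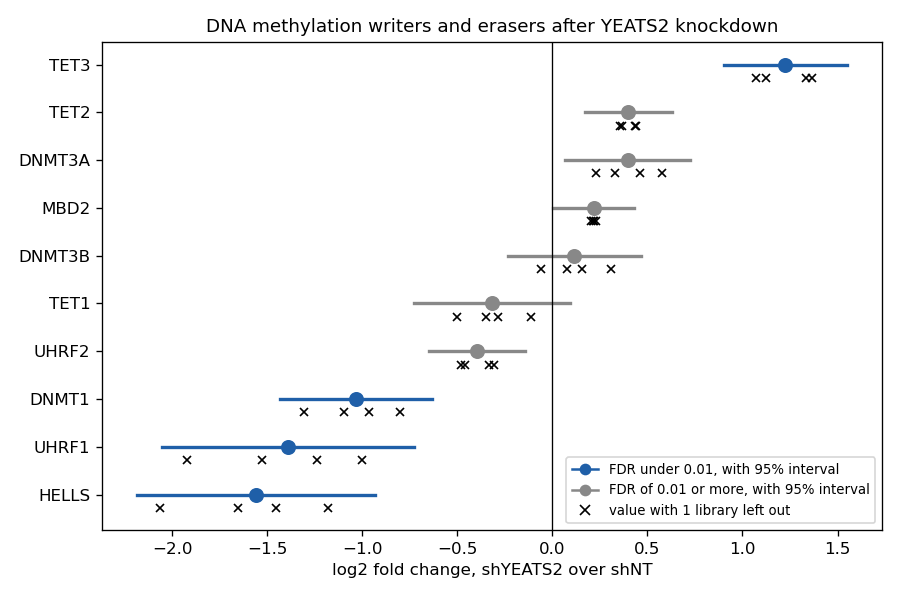
Log2 fold change of shYEATS2 over shNT (x axis) for the 10 genes, with circles for the edgeR estimate, bars for its 95% interval, blue where the FDR is under 0.01, and crosses for the value with each library left out. HELLS, UHRF1 and DNMT1 lie below 0 and TET3 above it in every fit, whereas the crosses of DNMT3B fall on both sides of 0.

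Levels between genes were compared per length, as TMM-scaled RPKM over the length of the canonical transcript. In shNT the order was DNMT1 (91.5), UHRF1 (53.3), UHRF2 (26.7), HELLS (19.99), MBD2 (17.5), TET3 (4.60), DNMT3B (4.07), TET2 (3.79), DNMT3A (3.16) and TET1 (0.962). Neighbours whose library values overlapped were TET3 with DNMT3B and DNMT3B with TET2. In shYEATS2 the levels of UHRF1 and UHRF2 were both 20.3, and their libraries overlapped, while HELLS was at 6.80 and TET3 at 10.7. Over the length of all annotated exons instead, UHRF1 (40.3) stood above DNMT1 (31.4) in shNT, and MBD2 (15.6) above UHRF2 (9.64) and HELLS (4.39). TET3 (4.28) was then close to HELLS already in shNT, so that order depends on the length used. Annotated exons cover 5144 bases in UHRF1 and 9919 in UHRF2, so their equal level in shYEATS2 holds for the canonical length only.

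Ratios of raw reads within a library need no scaling between libraries, although they show unequal change only, and no test was made of them. TET3 held 57.8% and 51.8% of the reads of the TET family in shNT and 68.2% and 71.7% in shYEATS2. TET1 held 7.81% and 10.6% in shNT and 4.44% and 3.64% in shYEATS2. Both shares were apart between the groups. DNMT1 held 92.4% and 89.6% of the reads of the 3 methyltransferases in shNT and 82.3% and 77.4% in shYEATS2. For each TET3 read there were 8.50 and 8.96 DNMT1 reads in shNT and 2.38 and 1.37 in shYEATS2. UHRF1 reads per UHRF2 read went from 2.54 and 1.84 to 1.37 and 0.786, so that UHRF2 was counted more often than its paralog in shYEATS2 replicate 2. By contrast, UHRF1 reads per HELLS read were 3.41, 3.21, 3.76 and 3.67 over the 2 shNT and 2 shYEATS2 libraries, somewhat higher after knockdown.

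Cell cycle genes moved in the same direction as the fallen genes. DNMT1, UHRF1 and HELLS are known to be expressed with DNA replication, and a list of 41 S phase markers was therefore read without UHRF1 and HELLS. Of it, 33 genes (80.5%) fell and 0 rose, with a median log2 fold change of -1.14. The 0 also held at an unadjusted p under 0.05 and by DESeq2, exactTest and limma-trend. The steepest falls were E2F8, a repressor of the E2F family, at -1.95, the flap endonuclease FEN1 at -1.76 and the cyclin CCNE2 at -1.74. Of 54 G2/M markers, 48 (88.9%) fell and 0 rose, with a median of -1.18 and ECT2, a driver of cytokinesis, at -2.11. Again 0 rose by the other 3 tests and at an unadjusted p under 0.05. Those tests called 49 to 50 of them lower. The summed scaled counts of the S phase list were 228813 and 214616 in shNT and 121498 and 83643 in shYEATS2. By flow cytometry, the paper reports a G1 arrest of the cells after YEATS2 knockdown. The part of the cell cycle shift in the falls of the 3 genes was not tested.

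Against these S phase reads, the 3 genes differed. DNMT1 had 8.06 and 7.80 reads for every 100 reads of the S phase list in shNT and 8.31 and 8.50 in shYEATS2, slightly above the controls. UHRF1 had 3.64 and 3.16 in shNT and 3.11 and 2.38 in shYEATS2, and HELLS had 1.07 and 0.986 in shNT and 0.828 and 0.650 in shYEATS2. HELLS and UHRF1 were thus lower than in the controls also relative to the list, UHRF1 by a small margin in replicate 1. TET3 went from 0.948 and 0.871 to 3.49 and 6.22, but the list itself fell, which raises this ratio for genes that fell less or not at all. UHRF2, not called, went from 1.435 and 1.716 to 2.272 and 3.032. DNMT3A, also not called, went from 0.4185 and 0.5656 to 1.229 and 1.631.

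**Figure D3:**
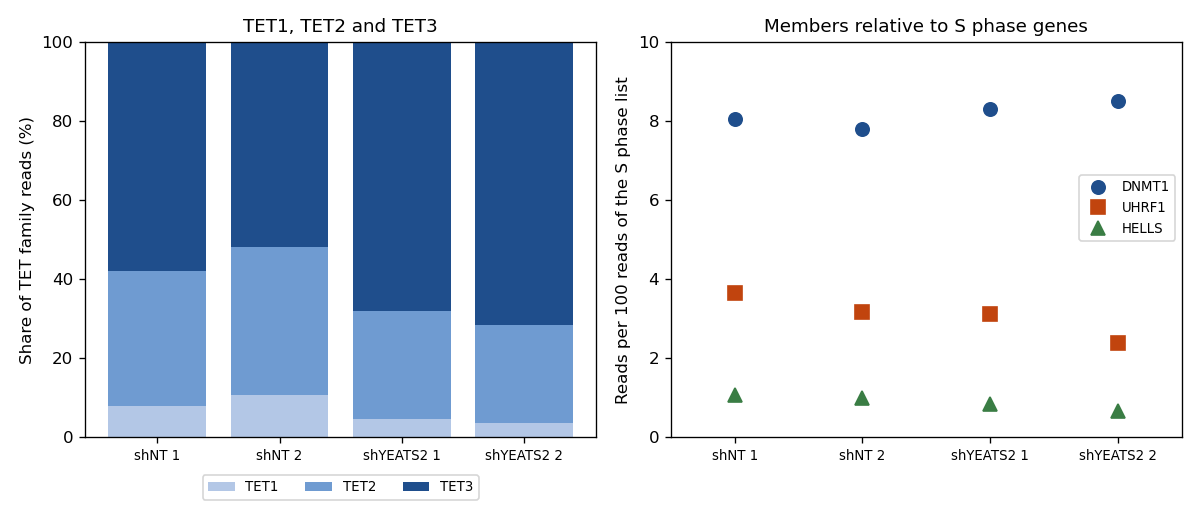
Left, share of TET family reads (%) from TET1, TET2 and TET3 in each of the 4 libraries. Right, DNMT1, UHRF1 and HELLS reads per 100 reads of the S phase list in each library. The TET3 share is 51.8% to 57.8% in shNT and 68.2% to 71.7% in shYEATS2, and DNMT1 keeps 7.80 to 8.50 reads per 100 while UHRF1 and HELLS are lower in shYEATS2.

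The other genes of the pathway gave 13 lower (21%) and 7 higher (11.3%) of 62 in the table, where 12.5% and 12.9% of all genes were called, with a median log2 fold change of -0.12. Without shNT replicate 1 the lower count was 8, and without shNT replicate 2 the higher count was 4. Leaving aside PCNA and CDCA7, which are also on the S phase list, 11 of 60 were lower and 7 higher.

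Among maintenance and de novo partners, which include PCNA, LIG1 and histone methyltransferases, 7 of 12 genes fell and the median was -0.67. None rose by edgeR, DESeq2, exactTest or limma-trend, and 0 were higher at an unadjusted p under 0.05. PCNA, the sliding clamp that DNMT1 binds, had scaled counts of 7863 and 7877 in shNT and 3142 and 2071 in shYEATS2 (log2 fold change -1.59, SE 0.19, edgeR FDR 0.00158). KIAA0101, a PCNA-associated factor, was at -1.44 (edgeR FDR 0.00198) and LIG1, the replicative ligase that UHRF1 can bind, at -1.38 (edgeR FDR 0.00168). Of 18 genes of TET cofactors and base excision repair, 2 rose (11.1%) and 2 fell (11.1%), shares below those of all genes. DESeq2 called 3 higher and 4 lower, where it called 2159 and 2190 of all 12676 genes. TDG, which cuts out the bases that TET enzymes make, rose from 1834 and 1693 to 2777 and 2995 (log2 fold change 0.71, SE 0.10, edgeR FDR 0.00248), and GADD45A, a stress-induced adaptor linked to demethylation, rose by 0.93 (edgeR FDR 0.00130). APEX1, the endonuclease of the next step, fell by 0.68 (edgeR FDR 0.00235), and PARP1 fell by 0.63.

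Methyl-DNA readers and silencing partners gave 3 of 12 genes lower and 3 higher (25% each), also by limma-trend. Over all genes, edgeR called 12.5% lower and 12.9% higher. The higher count was 5 by DESeq2 and 6 by exactTest, with 3 lower in both, where these tests called 2159 and 2596 of all genes higher. TRIM28, the corepressor of zinc finger repressors, was at -0.76 and MBD4, a glycosylase for mismatched thymine, at -0.74, against 0.77 for MBD6 (edgeR FDR 0.00288) and 0.61 for MBD5. None of 12 NuRD genes was called by edgeR, DESeq2, exactTest or limma-trend. At an unadjusted edgeR p under 0.05, 2 were lower and 1 higher. These shares lay below those of all 12676 genes, of which 3528 were lower and 3636 higher. In the cycle of the methyl donor S-adenosylmethionine, 1 of 8 genes fell and 2 rose. AHCYL1, related to the enzyme that clears the used donor, was at -1.28 (edgeR FDR 0.000888), and its relative AHCYL2 rose by 0.74 (edgeR FDR 0.00172).

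Many germline genes are known to be silenced by promoter methylation in body cells. Of 29 such genes 10 were in the table, and these were already expressed in shNT, with mean scaled counts from 155 (SYCE1) to 28074 (MAGEA4), so they do not bear on whether silenced genes reappeared. Of the 10, 5 (50%) fell, where 12.5% of all genes were called lower, and 0 rose, with a median log2 fold change of -0.48. The lower count was 7 by DESeq2 and exactTest and 5 by limma-trend. None rose by these tests or at an unadjusted p under 0.05. MAGEA1, a cancer-testis antigen, had scaled counts of 3481 and 2956 in shNT and 1690.0 and 1108 in shYEATS2 (log2 fold change -1.20, SE 0.20, edgeR FDR 0.00415). Reads of the MAGEA genes may be lost or split where their sequences are alike. The other 19 genes are not in the table, which lists genes with at least 101 reads in some library, so a gene that stayed under that level in all 4 was not analysed here.

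**Figure D4:**
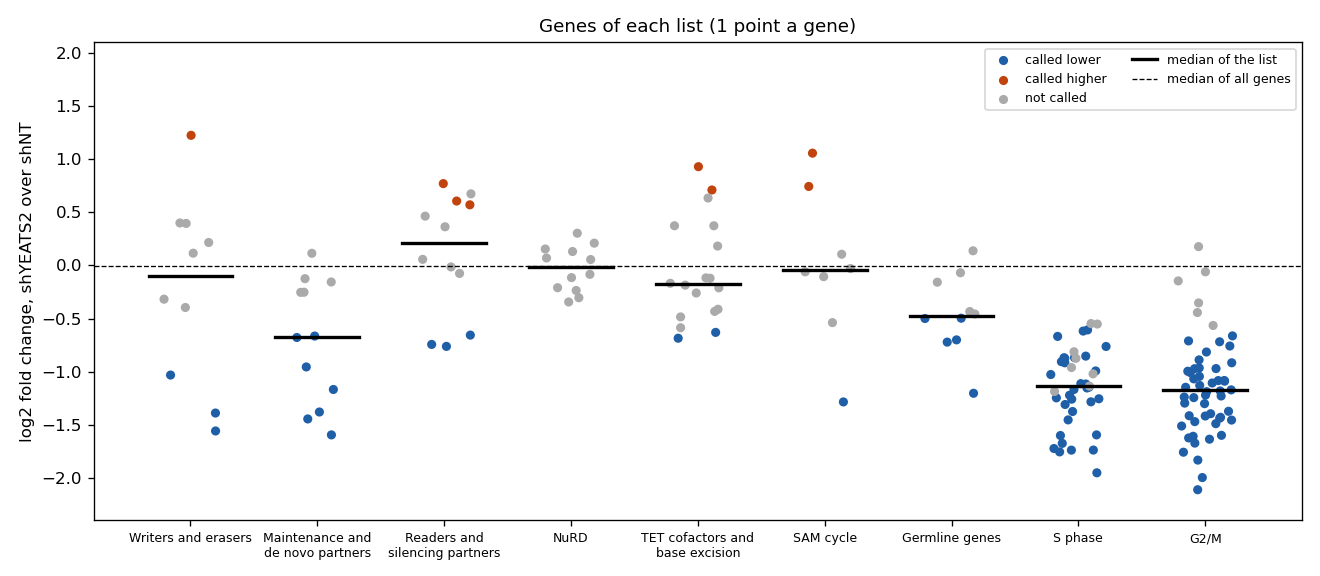
Log2 fold change of shYEATS2 over shNT (y axis) of every gene in the table from each list, 1 point a gene, blue where called lower, orange where called higher, with a bar for the list's median and a dashed line for the median of all genes. The S phase and G2/M medians are -1.14 and -1.18, that of the maintenance partners is -0.67, and the NuRD points stay near 0.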

How the data were processed

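The authors aligned the RNA-seq reads (RNA-Seq unified mapper, hg19), counted them with HTSeq and deposited raw read counts per gene, together with their own fold changes and p-values, which were not used. The submitters' processing notes list TopHat2 2.0.10 among the tools. The counting annotation is not given in the sources used here. The library kit does not mark strand, so reads of overlapping or antisense genes cannot be told apart, and reads of pseudogene copies (DNMT3A, TET1 and UHRF2 have one) may be lost.

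Libraries were grouped by their labels. The 12676 genes all passed a minimum of 10 reads in 2 libraries, and edgeR 4.0.16 (R 4.3.3) fitted them together by its quasi-likelihood test with TMM scaling and no replicate block, with calls at the study's FDR of 0.01. The method was tested on simulated data. With 2 libraries a group, p-values rest on the spread between these libraries, which edgeR estimates for each gene with information shared across all genes. The named genes were YEATS2, the 10 members and, from each list, up to 3 of the largest called falls and rises. Values of a few listed genes are not given here. The members and lists were chosen with earlier results of these data known. Positions come from the GENCODE annotation lifted to GRCh37, and promoters from RefSeq. Alternatives were exactTest of edgeR, DESeq2 1.42.0, limma 3.58.1 (limma-trend, pseudocount 1), other scalings and filters, an FDR of 0.05, a replicate block, and each library left out.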

Additional observations from a re-analysis of the deposited data

How the results depend on the processing

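HELLS, DNMT1 and TET3 kept their direction and their call under every alternative run, and UHRF1 under all but the fit without shNT replicate 1. The filter removed no gene, so leaving it out gave the same fit, and an FDR under 0.05 cannot lose a call, so neither bears on this. Genes called lower and higher numbered 1581 and 1630, 2497 and 2596 with exactTest, 3011 and 3093 at an FDR under 0.05, and 2715 and 2742 with the replicate block. With a library left out they ran from 850 to 2032 and from 775 to 1991, lowest without shNT replicate 1, and fell past 1.5 times also without shNT replicate 2 and, for genes called higher, shYEATS2 replicate 2. Such fits leave 1 library in a group, assumed to vary like the other group. TET2 joined TET3, making 2 called higher, with exactTest, total counts (edgeR FDR 0.00563), an FDR under 0.05 and the replicate block. UHRF2 was called lower with DESeq2 (FDR 0.00949), exactTest (FDR 0.00646), the block (FDR 0.00904) and an FDR under 0.05. Pathway genes called higher were 11 at an FDR under 0.05 and with the block, and with a library left out those called lower ran from 8 to 17 and higher from 4 to 8. DNMT3B ran from -0.058 without shNT replicate 1 (edgeR FDR 0.833) to 0.3083 without shNT replicate 2. Scaling by total counts moved the median of all genes from -0.0019 to 0.118 and the share of calls that were higher from 50.8% to 67%. The replicate numbers were not taken as a pairing in the main fit, as the labels do not state one. Over the 12676 genes, the log2 difference between replicates 1 and 2 had a correlation of 0.399 between the groups. Whether the replicates share an effect was not tested beyond the fit with the block. The cause of these shifts was not tested. Genes below 101 reads in every library are out of reach.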
